A study of Mus musculus with 4 samples.

Results

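The Hox clusters are 4 runs of homeobox genes on different mouse chromosomes. All integration positions that fell inside 4 fixed mm9 intervals were taken: chromosome 6 from 52090001 to 52225000 (HoxA, 135 kb, 10 listed genes), chromosome 11 from 96040001 to 96245000 (HoxB, 205 kb, 10 genes), chromosome 15 from 102740001 to 102880000 (HoxC, 140 kb, 9 genes) and chromosome 2 from 74490001 to 74615000 (HoxD, 125 kb, 9 genes). These 605 kb held 75 of the 122029 integration positions of the 4 libraries: 32 in HoxA, 14 in HoxB, 3 in HoxC and 26 in HoxD. The rule used the interval bounds and no measured value. The intervals count as regions here, because no mm9 gene annotation was used and no position was assigned to 1 of the 38 genes.

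The study used HIT-seq, which reads the location of a chromatin protein from where an HIV-based vector integrates, after the protein has been joined to LEDGF's integrase-binding domain. All cells were mouse embryonic fibroblasts of strain C57BL/6 (line E2) that lack Psip1, the gene of LEDGF, so the controls for sequence and length carry this deletion too. Plasmids for the TAF3 fusions were brought in by nucleofection, cells were left for 24 to 36 h and sorted for GFP, and 500 ng of a VSV-G pseudotyped luciferase vector with 8 µg/mL polybrene was then added for 48 to 72 h. The groups were full-length TAF3 with the wild-type sequence (Full WT), full-length TAF3 with the M880A substitution (Full M880A), the PHD domain alone with the wild-type sequence (PHD WT) and the PHD domain alone with M880A (PHD M880A). Each group had 1 library, so no value below has a replicate check, every comparison is of libraries and not of conditions, and no p-value is given. No library without a TAF3 fusion was analysed here, so the pattern of the vector alone in these regions was not measured. The fusion proteins came from introduced plasmids, in sorted cells, and not from the Taf3 gene itself.

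Hox genes encode homeodomain transcription factors that give cells their position along the body axis and the limb. Within a cluster the genes lie broadly in the order in which they are used along the axis, from low-numbered anterior genes to high-numbered posterior genes, and genes with the same number in different clusters are paralogues. Fibroblasts keep a Hox pattern that reflects the place in the body from which they came, and active and silent parts of a cluster carry different histone marks. TAF3 is a subunit of TFIID, the factor that places RNA polymerase II at promoters, and its PHD finger binds histone H3 trimethylated on lysine 4 (H3K4me3), a mark of active promoters. H3K4me3 is commonly found where DNA is rich in unmethylated CG dinucleotides, as it is around many Hox promoters. M880A is the only substitution in the design, and the series title concerns the binding of TAF3 to H3K4me3.

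The gene order along each region, from RefSeq's GRCm38.p6 annotation sorted by annotated start and used without coordinates, gives the clusters a direction. An annotated start can reflect a long transcript, and groups 3 and 4 come out of numerical order in HoxB and HoxD. In HoxA it ran with rising coordinate from Hoxa2 through Hoxa3, Hoxa4, Hoxa5, Hoxa6, Hoxa7, Hoxa9, Hoxa10 and Hoxa11 to Hoxa13, followed by Evx1, a homeobox gene beside the posterior end. In HoxB it began with Hoxb13 and went through Hoxb9, Hoxb8, Hoxb7, Hoxb6, Hoxb5, Hoxb3, Hoxb4 and Hoxb2 to Hoxb1. In HoxC it began with Hoxc13 and went through Hoxc12, Hoxc11, Hoxc10, Hoxc9, Hoxc8, Hoxc6 and Hoxc5 to Hoxc4. In HoxD it began with Hoxd13, next to Evx2, and went through Hoxd12, Hoxd11, Hoxd10, Hoxd9, Hoxd8, Hoxd3 and Hoxd4 to Hoxd1. The posterior genes thus lie at the high-coordinate end of HoxA and at the low-coordinate end of the other clusters.

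Promoter sequences show the DNA at the starts of some of the listed genes. Sequence at the integration sites was not examined. RefSeq's GRCm38.p6 promoter table, which gives 300 bases per promoter that run from upstream of the start to just past it, had an entry for 22 of the 38 genes (24 promoters). The first pair below comes from the posterior ends of HoxA and HoxD in gene order: Hoxa13, at chr6:52260831-52261130 (minus strand), and Hoxd13, at chr2:74667975-74668274 (plus strand), paralogues that pattern the digits. The other 3 are the paralogues of group 4 with an entry, 1 from each of HoxB, HoxC and HoxD: Hoxb4, at chr11:96318017-96318316 (plus strand), known for expanding blood stem cells when overexpressed, Hoxc4, at chr15:103034145-103034444 (plus strand), and Hoxd4, at chr2:74721728-74722027 (plus strand), a gene of the hindbrain and neck region. Coordinates are those of GRCm38.p6, not of the integration sites, letters run 5′ to 3′ on the strand of the gene, and capitals mark CG dinucleotides.
Hoxa13: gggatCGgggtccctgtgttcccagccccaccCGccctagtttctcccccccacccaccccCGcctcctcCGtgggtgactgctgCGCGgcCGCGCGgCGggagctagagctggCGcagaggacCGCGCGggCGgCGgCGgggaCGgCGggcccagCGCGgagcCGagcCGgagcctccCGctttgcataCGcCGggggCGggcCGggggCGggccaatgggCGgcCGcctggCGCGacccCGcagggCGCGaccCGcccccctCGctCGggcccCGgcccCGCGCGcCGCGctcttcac
Hoxd13: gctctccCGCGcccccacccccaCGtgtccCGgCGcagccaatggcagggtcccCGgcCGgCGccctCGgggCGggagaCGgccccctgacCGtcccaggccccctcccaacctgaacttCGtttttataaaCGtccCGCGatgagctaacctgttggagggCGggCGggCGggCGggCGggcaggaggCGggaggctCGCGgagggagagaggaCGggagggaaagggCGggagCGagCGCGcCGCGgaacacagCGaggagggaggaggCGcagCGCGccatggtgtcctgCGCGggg
Hoxb4: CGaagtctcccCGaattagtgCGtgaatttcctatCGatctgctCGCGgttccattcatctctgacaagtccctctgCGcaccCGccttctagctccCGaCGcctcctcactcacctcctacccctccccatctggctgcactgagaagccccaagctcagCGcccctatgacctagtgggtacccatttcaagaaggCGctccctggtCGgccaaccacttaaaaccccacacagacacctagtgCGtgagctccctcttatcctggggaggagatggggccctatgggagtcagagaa
Hoxc4: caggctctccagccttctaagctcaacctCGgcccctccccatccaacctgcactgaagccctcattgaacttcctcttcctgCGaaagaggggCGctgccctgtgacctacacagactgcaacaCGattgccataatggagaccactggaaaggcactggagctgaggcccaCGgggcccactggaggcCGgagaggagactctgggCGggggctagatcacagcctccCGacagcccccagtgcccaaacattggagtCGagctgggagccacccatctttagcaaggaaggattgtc
Hoxd4: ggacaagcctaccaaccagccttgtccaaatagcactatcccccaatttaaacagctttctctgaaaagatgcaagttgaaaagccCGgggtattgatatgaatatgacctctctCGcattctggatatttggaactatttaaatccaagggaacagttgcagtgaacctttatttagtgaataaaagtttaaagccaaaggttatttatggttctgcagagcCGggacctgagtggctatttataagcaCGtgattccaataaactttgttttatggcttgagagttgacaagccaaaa

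The capitals are dense in Hoxa13, with 45 CG dinucleotides in 300 bases, and in Hoxd13, with 37. Hoxb4 had 14, Hoxc4 9 and Hoxd4 4. Hoxa13 and Hoxd13 had the most of the 24 promoters and do not stand for the posterior ends. Hoxa9 had 4, Hoxd12 13, Hoxa11 15 and Hoxd10 22, while Hoxa5 and Hoxd1, with lower numbers, had 29 each. Over the 24 promoters the median was 14.5 (range 4 to 45), beside 7 over all 32851 promoters of the table, and 17 of 24 (70.8%) held at least 10 CG dinucleotides, beside 43.5% of all. The letters TATAAA, searched on both strands, were present in 4 of 24 (16.7%) and in 13.6% of all promoters. They lie in Hoxd13 and Hoxd4 among the sequences shown, and in Hoxb8 and 1 of the Hoxa10 promoters. The entries came mostly from HoxA and HoxD (10 promoters each), with 3 from HoxB and 1 from HoxC, so the clusters were not compared by promoter sequence.

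The lists held 22486 positions for Full WT, 39292 for Full M880A, 25363 for PHD WT and 34888 for PHD M880A, over a span of 2570 Mb. Shares and densities below are relative to these totals. The read names placed Full WT alone on a flow cell and the other 3 libraries on another, so in every comparison with Full WT the flow cell cannot be told apart from the fusion. The number after the read name, taken as reads per site, had a median of 41, 24, 29 and 23 over the genome, with a minimum of 2. Inside the Hox clusters the medians were 71, 5, 28 and 27, so the 15 Full M880A sites were the thinnest in reads, with 40% at 10 reads or more against 65.2% over the genome. All intervals are exact 95% intervals of a count (Poisson), a share (Clopper-Pearson) or a ratio (conditional binomial). Reads amplified by PCR and not tagged with molecular identifiers do not count molecules, so distinct positions were counted, and the intervals cover counting error only. They treat sites as independent, and are too narrow where sites crowd.

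HoxA and HoxD were rich in integration sites in the wild-type libraries, HoxB lay near the mean of the library, and HoxC held almost none. Over the 4 clusters there were 24 Full WT, 15 Full M880A, 19 PHD WT and 17 PHD M880A sites. Per 10000 sites of the library this was 10.7 (6.84 to 15.9), 3.82 (2.14 to 6.30), 7.49 (4.51 to 11.7) and 4.87 (2.84 to 7.80). Relative to the mean of the library, Full WT reached a density of 4.53-fold (2.91 to 6.75). It was 1.62-fold (0.908 to 2.68) in Full M880A, 3.18-fold (1.92 to 4.97) in PHD WT and 2.07-fold (1.21 to 3.31) in PHD M880A. These sums hide large differences between the clusters.

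HoxA, with the anterior Hoxa2 and the posterior Hoxa13 at its ends, held 12 Full WT, 5 Full M880A, 7 PHD WT and 8 PHD M880A sites. Its density was 10.2 times the library mean (5.25 to 17.7) in Full WT, 2.42 times (0.787 to 5.65) in Full M880A, 5.25 times (2.11 to 10.8) in PHD WT and 4.37 times (1.88 to 8.60) in PHD M880A. The point value lay above the mean in every library, and the interval held 1 in Full M880A only. Among 17154 tiles of 150 kb over the genome, 0.822%, 7.97%, 5.01% and 1.06% were at least as dense in the same order.

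HoxD held 10 Full WT, 2 Full M880A, 10 PHD WT and 4 PHD M880A sites. In Full WT its density was 9.14 times the mean (4.39 to 16.8), and PHD WT reached 8.11 times (3.89 to 14.9). In Full M880A it was 1.05 times (0.127 to 3.78) and in PHD M880A 2.36 times (0.642 to 6.04), intervals that both hold 1. Of the genome's tiles, 0.985% in Full WT and 1.94% in PHD WT were at least as dense, against 31.5% in Full M880A and 10.1% in PHD M880A. HoxD was thus high in both wild-type libraries, while HoxA was also above its mean in PHD M880A.

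HoxB, the longest region, held 2 Full WT, 7 Full M880A, 2 PHD WT and 3 PHD M880A sites. The densities were 1.12 (0.135 to 4.03), 2.23 (0.898 to 4.60), 0.989 (0.120 to 3.57) and 1.08 (0.222 to 3.15) times the mean, and each interval held 1. HoxC held 0 Full WT, 1 Full M880A, 0 PHD WT and 2 PHD M880A sites. At the mean density of each library its 140 kb would hold 1.22, 2.14, 1.38 and 1.90 sites, so at this depth a HoxC density below the mean was not detectable in any library. The absence of a site allowed a density of up to 3.01 times the mean in Full WT and 2.67 times in PHD WT. Those upper bounds lie below the lower bounds of HoxD in the same libraries (4.39 and 3.89).

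**Figure D1:**
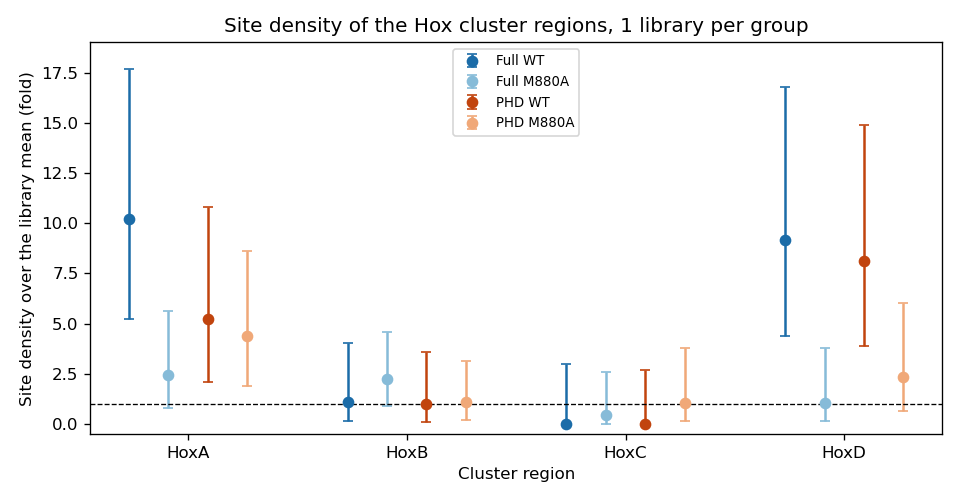
Site density of each Hox region (x axis) as a fold over the mean density of the library (y axis), with 1 point per library and exact 95% counting intervals; the dashed line marks the library mean. HoxA stands at 10.2 in Full WT and HoxD at 9.14 in Full WT and 8.11 in PHD WT, while every interval of HoxB and HoxC holds 1.

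A density at or above 2 times the mean was reached by 2 of the 4 clusters in each library. In Full WT these were HoxA and HoxD, and 14.8% of the genome's tiles reached it. In Full M880A they were HoxA and HoxB, beside 11.9% of tiles, but among sites with at least 10 reads these stood at 1.49 (0.180 to 5.37) and 1.47 (0.303 to 4.29) times the mean, and none of the 4 clusters reached 2 times there. In PHD WT they were HoxA and HoxD, beside 16.0% of tiles, and in PHD M880A HoxA and HoxD, beside 10.1%. With 4 regions, 2 of 4 is a small count to set against these percentages. Having no site was the more common state of a tile: 51.4% of tiles had no Full WT site and 58.8% no PHD WT site, beside 1 of the 4 clusters (HoxC) in each.

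Set against each other within a library, the clusters separated in the wild-type libraries. In Full WT the HoxA density was 9.11 times that of HoxB (2.03 to 83.8), and in PHD WT 5.31 times (1.01 to 52.4). The HoxB density was 0.122 times that of HoxD (0.0130 to 0.572) in Full WT, and the PHD WT counts of 2 and 10 were the same and gave the same ratio. With HoxC set at a floor of 3 sites per library, the HoxA density was 4.15 times that of HoxC in Full WT and 2.42 times in PHD WT. With the 0 sites as counted, the interval of the ratio began at 2.88 in Full WT and at 1.49 in PHD WT. The ratio of HoxC to HoxD was 0 with an upper bound of 0.398 in both. HoxA and HoxD did not separate from each other, with 1.11 (0.440 to 2.87) in Full WT and 0.648 (0.209 to 1.89) in PHD WT.

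In the M880A libraries none of the 12 ratios between clusters had an interval without 1. HoxA over HoxB was 1.08 (0.271 to 3.97) in Full M880A and 4.05 (0.972 to 23.7) in PHD M880A, and HoxA over HoxD 2.31 (0.379 to 24.3) and 1.85 (0.496 to 8.40). Of the 24 ratios over the 4 libraries, 8 had an interval without 1, 4 in each wild-type library. The intervals are not adjusted for this number.

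The sites of HoxA and HoxD did not fill their regions. In HoxA, 28 of the 32 sites lay between 52157501 and 52225000, the upper part of the region by coordinate, and 4 in the equally long lower part. The upper part is the one toward Hoxa13 in gene order. All 12 sites of Full WT, 4 of the 5 of Full M880A, 6 of the 7 of PHD WT and 6 of the 8 of PHD M880A fell there. In HoxD, 25 of the 26 sites lay between 74490001 and 74552500, the part toward Hoxd13, and 1 in the upper part. That lower part held all sites of Full WT (10), Full M880A (2) and PHD M880A (4), and 9 of the 10 of PHD WT. HoxB was evenly divided, with 7 and 7 sites, and HoxC had 2 and 1. In both site-rich clusters most sites thus lay in the part toward the posterior end in gene order, in each of the 4 libraries. Full M880A counted only 2 sites in HoxD. The sites did not crowd at the edge of the region. From the lower edge of HoxD, at 74490001, up to 74530000, bins of 10 kb held 3, 5, 7 and 10 sites. No HoxA site lay beyond 52209650.

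**Figure D2:**
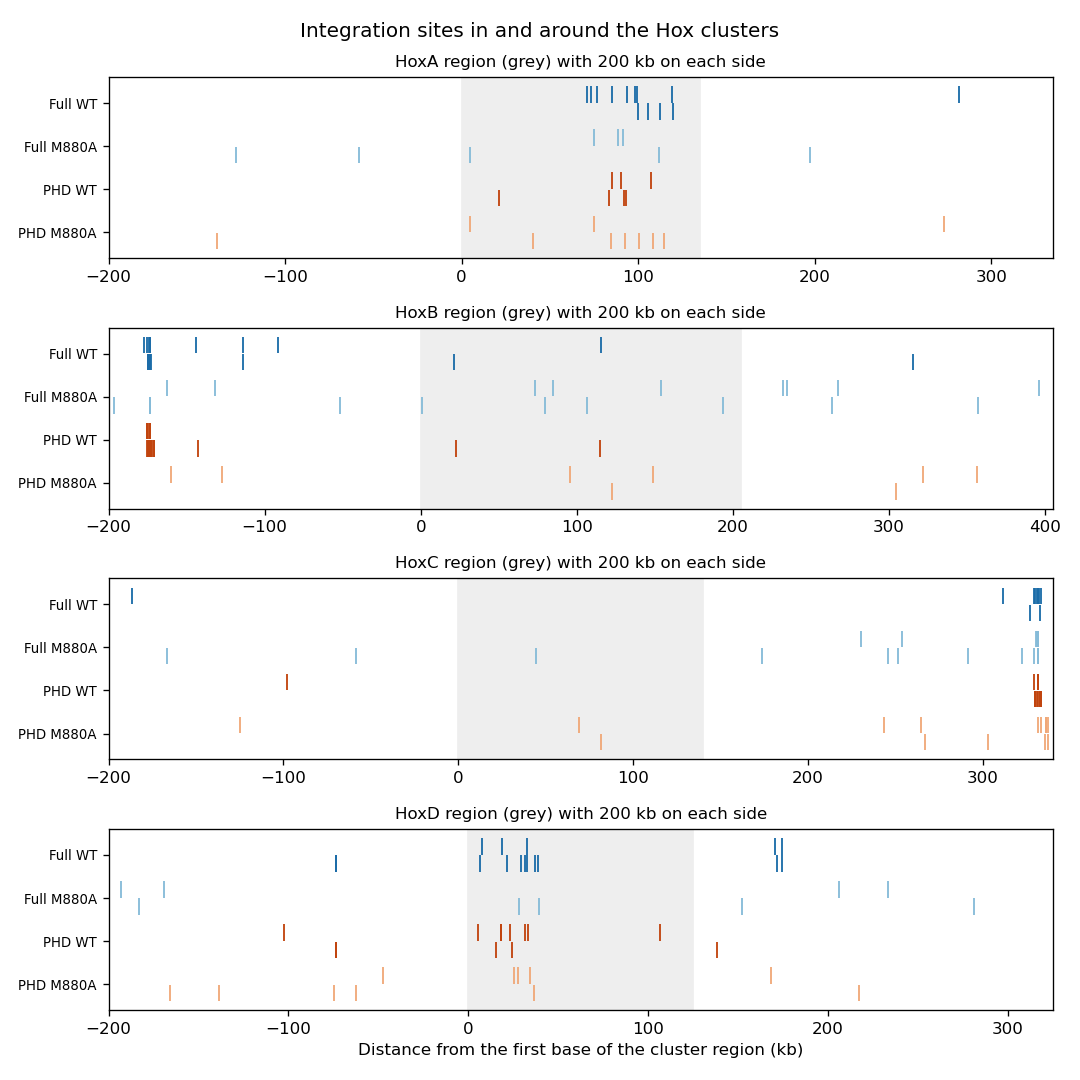
Integration sites of the 4 libraries (rows) in each Hox region (grey) and 200 kb on either side, by distance in kb from the first base of the region; the upper ticks of a row are plus-strand and the lower ticks minus-strand sites. The HoxA sites crowd between about 70.8 and 120 kb and the HoxD sites between 5.35 and 39.1 kb, while HoxC is almost empty.

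With gaps of up to 10 kb allowed, the HoxA sites formed a stretch from 52160782 to 52209650, 48.9 kb long, with 28 sites or 57.3 per 100 kb. The median distance between its neighbouring sites of any library was 1301 bp and the largest 6921 bp. The HoxD stretch ran from 74495350 to 74529075, 33.7 kb, with 25 sites or 74.1 per 100 kb, a median gap of 1018 bp and a largest gap of 7996 bp. Of the 27 gaps in the HoxA stretch 11 were of 1 kb or less, and of the 24 in HoxD also 11. The stretches were outlined after the positions had been seen and describe them only. Beside them lay long gaps with no site of any library: 30.5 kb in HoxA (52130258 to 52160781), 50.7 kb in HoxB (96062599 to 96113295), 58.6 kb in HoxC (102821446 to 102880000) and 67.3 kb in HoxD (74529076 to 74596327).

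In bins of 10 kb, the fullest of HoxA was 52180001 to 52190000, with 4 Full WT, 1 Full M880A, 3 PHD WT and 1 PHD M880A sites. The bins from 52160001 (3, 1, 0 and 1 sites in the same order), from 52170001 (1, 1, 2 and 1) and from 52200001 (3, 1, 0 and 1) followed with 5 sites each. In HoxD, 74520001 to 74530000 held 5 Full WT, 1 Full M880A, 2 PHD WT and 2 PHD M880A sites, the bin from 74510001 2, 1, 2 and 2, and the bin from 74500001 1, 0, 4 and 0. The fullest HoxA bin and the fullest 2 HoxD bins thus had sites from every library. No HoxB bin held more than 2 sites over the 4 libraries (the bins from 96060001, 96110001 and 96150001), and no HoxC bin more than 1. Bins with no site numbered 6 of 14 in HoxA, 10 of 21 in HoxB, 11 of 14 in HoxC and 8 of 13 in HoxD.

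The 3 HoxC sites were a Full M880A site at 102784414 on the minus strand with 30 reads and PHD M880A sites at 102809144 (plus strand, 21 reads) and 102821445 (minus strand, 4 reads). The HoxB sites of the wild-type libraries came in near pairs. Full WT had its sites at 96061303 (89 reads) and 96155320 (109 reads), and PHD WT at 96062598 (126 reads) and 96154956 (2 reads). The 7 Full M880A sites of HoxB were spread from 96040501 to 96233310, and 4 of them had 5 reads or fewer. The PHD M880A sites of HoxB lay at 96135752, 96162427 and 96189042 with 158, 866 and 14 reads.

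At 1 place in HoxD a PHD WT site and a Full WT site faced each other. The PHD WT site was at 74521389 on the plus strand (38 reads) and the Full WT site at 74521393 on the minus strand (112 reads), so that 5 bases were spanned. HIV integrase joins the vector to staggered positions, and a target of this length is duplicated at each insertion, so the ends of 1 target can be listed on opposite strands. Over the genome, 74 PHD WT plus-strand sites had a Full WT minus-strand site at this spacing and 69 pairs lay the other way. The other spacings from 1 to 10 bases spanned had between 2 and 18 pairs in each direction. The spacing of 5 bases was singled out after it had been seen.

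The flanks, 200 kb on each side, put the clusters beside their neighbourhood within the same library. HoxA was denser than its flanks in Full WT, PHD WT and PHD M880A, and HoxD in Full WT and PHD WT, by intervals above 1. HoxB and HoxC were below their flanks in PHD WT by intervals under 1, and both of these values rested on 1 distant group of sites each. HoxA had 1 Full WT, 3 Full M880A, 0 PHD WT and 2 PHD M880A sites in both flanks together. The ratio of cluster to flank density was 35.6 (5.26 to 1520) in Full WT, 4.94 (0.961 to 31.8) in Full M880A and 11.9 (2.37 to 115) in PHD M880A. In PHD WT, with 7 sites against none, it was 6.91 with the flanks set at 3 sites. With no flank site, as counted, its interval began at 4.27. Over the 4 libraries it was 15.8 (6.52 to 46.2).

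HoxD had 6, 7, 4 and 7 flank sites in the order Full WT, Full M880A, PHD WT, PHD M880A, which is 1.5, 1.75, 1.0 and 1.75 per 100 kb beside library means of 0.875, 1.53, 0.987 and 1.36. Its density ratio was 5.33 (1.76 to 17.9) in Full WT. In PHD WT it was 8.00 (2.31 to 34.9), and the M880A values were 0.914 (0.0927 to 4.80) and 1.83 (0.393 to 7.19) in Full M880A and PHD M880A. With flanks of 100 kb the Full WT value fell to 2.67 (0.878 to 8.93), an interval that holds 1.

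HoxB was thinner than its flanks in PHD WT, 0.177 (0.0202 to 0.722), and the interval held 1 in Full WT (0.260, 0.0289 to 1.12), Full M880A (1.14, 0.380 to 3.14) and PHD M880A (1.17, 0.182 to 6.02). A single place decided the PHD WT value. In the lower flank, 171 kb from the region, positions 95864317 to 95869236 on chromosome 11 held 9 Full WT, 2 Full M880A, 21 PHD WT and 0 PHD M880A sites. Without such groups (at least 5 sites over the 4 libraries with gaps of at most 1 kb, left out after the data had been seen) the PHD WT ratio was 3.90 (0.203 to 230) and the Full WT ratio 0.650 (0.0642 to 3.64). HoxC had 12, 16, 14 and 12 flank sites, and its ratio was 0 with an upper bound of 1.03 in Full WT and of 0.861 in PHD WT, 0.179 (0.00426 to 1.15) in Full M880A and 0.476 (0.0518 to 2.14) in PHD M880A. Its upper flank held a like group, 189 kb away at 103068925 to 103073209 on chromosome 15, with 9, 7, 13 and 2 sites, so that 13 of the 14 PHD WT flank sites of HoxC lay in it, which leaves 1 flank site against 0 in the cluster. Without dense groups, the upper-flank group of 5 PHD M880A sites at 103075729 to 103077418 included, the HoxC ratio was 0.317 (0.00724 to 2.29) in Full M880A and 1.14 (0.109 to 6.98) in PHD M880A. In gene order HoxB is preceded by Ttll6 and Calcoco2, and HoxC followed by Smug1, Cbx5, which encodes heterochromatin protein HP1α, and Hnrnpa1, a splicing factor, but neither group was assigned to a gene.

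A cluster was at least 2 times as dense as its flanks in 2 of 4 cases in Full WT (HoxA and HoxD), beside 24.3% of tiles with at least 5 sites in tile and flanks. The counts were 1 of 4 in Full M880A (HoxA, background 19.5%), 2 of 4 in PHD WT (HoxA and HoxD, 27.0%) and 1 of 4 in PHD M880A (HoxA, 18.7%). Flanks at least 2 times as dense as the cluster were found for 2 of 4 in Full WT (HoxB and HoxC), beside 37.9% of tiles. The counts were 1 of 4 in Full M880A (HoxC, background 28.3%), 2 of 4 in PHD WT (HoxB and HoxC, 47.8%) and 1 of 4 in PHD M880A (HoxC, 26.1%). Flanks denser than the middle were thus a common state of the genome, and the HoxB and HoxC counts lie near it.

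Crossing length with sequence gives 4 pairs of libraries, which share libraries with each other. For the full-length fusion, wild type against M880A, the share of sites was higher in Full WT in HoxA (12 and 5 sites, ratio 4.19, 1.38 to 15.2) and in HoxD (10 and 2 sites, ratio 8.74, 1.86 to 82.0). HoxB had 2 and 7 sites, a ratio of 0.499 (0.0506 to 2.62), and HoxC 0 and 1. Both clusters with at least 10 sites over the pair were past 2-fold toward Full WT, beside 31.8% of tiles with at least 10 sites past it in that direction. Over the 4 clusters the ratio was 2.80 (1.41 to 5.73). Set against each other, the ratio in HoxB was 0.0691 times that in HoxD (0.00385 to 0.693), HoxA against HoxB gave 7.64 (0.995 to 101) and HoxA against HoxD 0.492 (0.0388 to 3.87), so that 1 of these 3 intervals was without 1. These comparisons between clusters were added after the counts had been seen, and the intervals are not adjusted for their number.

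Reads and the choice of junction bear on these values. The 2 Full M880A sites of HoxD, at 74518371 and 74529075, had 9 and 2 reads, and no Full M880A site of HoxD was left at 10 reads or more. The HoxD ratio was 5.79 (1.49 to 32.8) with every line counted and 5.83 (1.5 to 33.0) with the other end of the line as the junction. At 10 reads or more the HoxA ratio was 6.06 (1.21 to 58.6) and the HoxB ratio 1.01 (0.0843 to 8.81), so the low HoxB value rested on sites with few reads. The flow cell also differed within this pair, as given above.

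For the PHD domain alone, with both libraries on 1 flow cell, HoxA did not differ beyond its counting interval (7 and 8 sites, ratio 1.20, 0.372 to 3.80). HoxD had 10 and 4 sites, a ratio of 3.44 (0.992 to 15.0), and its lower bound lay so near 1 that merging same-strand positions within 10 bp moved it to 1.01. At 10 reads or more the HoxD ratio was 2.53 (0.642 to 11.8) and the HoxA ratio 2.02 (0.552 to 8.07). Without dense groups in clusters and library totals they were 7.57 (2.18 to 33.1) and 2.16 (0.541 to 7.92), so the HoxD call depends on the setting. HoxB had 2 and 3 sites (0.917, 0.0766 to 8.01) and HoxC 0 and 2. Of the 2 clusters with at least 10 sites, HoxD was past 2-fold toward PHD WT, beside 62.7% of tiles past it in that direction. A ratio of this size was thus common in site-rich tiles of this pair. Over the 4 clusters the ratio was 1.54 (0.757 to 3.15). The M880A ratio of the full-length pair was 3.37 times that of the PHD pair in HoxA (0.658 to 19.2) and 2.47 times in HoxD (0.277 to 33.3), and both intervals hold 1.

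**Figure D3:**
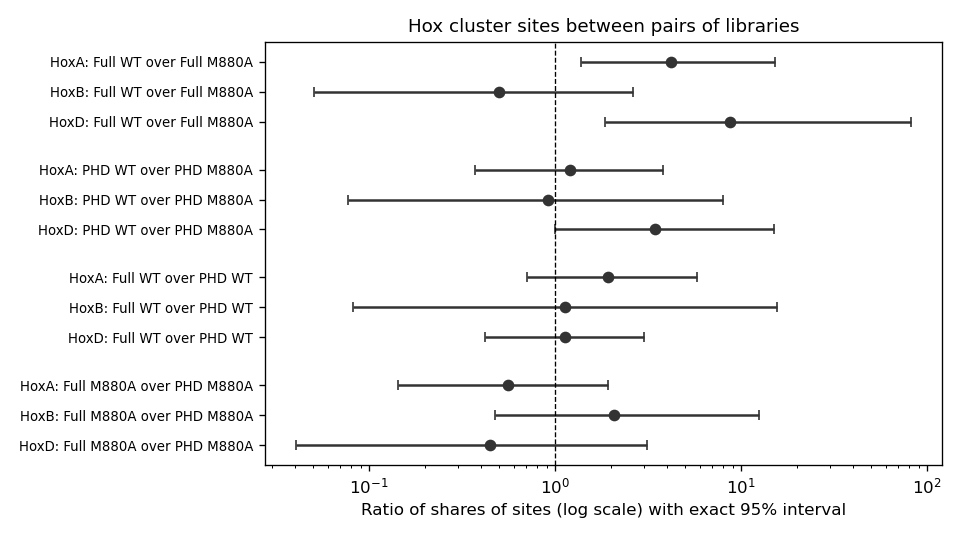
Ratio of the shares of sites in HoxA, HoxB and HoxD between the 2 libraries of each pair (log axis), with exact 95% counting intervals; the dashed line marks equal shares, and HoxC is left out for its 3 sites. Only HoxA and HoxD in Full WT over Full M880A have intervals above 1 (4.19 and 8.74).

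The lengths could not be told apart inside the Hox clusters at this depth. Between Full WT and PHD WT the ratios were 1.93 (0.702 to 5.80) in HoxA, 1.13 (0.0818 to 15.6) in HoxB and 1.13 (0.421 to 3.02) in HoxD, and 1.42 (0.748 to 2.75) over the 4 clusters. None of the 2 clusters with enough sites was past 2-fold in either direction. Of tiles, 6.41% were past 2-fold toward Full WT, and those past it toward PHD WT were not counted. Between Full M880A and PHD M880A they were 0.555 (0.143 to 1.92) in HoxA, 2.07 (0.473 to 12.4) in HoxB and 0.444 (0.0402 to 3.10) in HoxD. The sum over the clusters gave 0.783 (0.364 to 1.67). HoxA and HoxB were the clusters with at least 10 sites over this pair. HoxB was past 2-fold toward Full M880A, beside 26.8% of tiles past it in that direction, with an interval that held 1. Among sites with at least 10 reads its ratio was 0.935 (0.125 to 6.98), below 1, since 4 of its 7 Full M880A sites have 5 reads or fewer.

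Neighbours of the same library within 1 kb were less common among PHD WT sites of the clusters than over the genome. The intervals of the other libraries held the genome's share at this distance. For Full WT, 8 of 24 sites (33.3%, 15.6 to 55.3) had a Full WT neighbour within 1 kb, against 39.1% over the genome. For PHD WT it was 3 of 19 (15.8%, 3.38 to 39.6) against 67.2% over the genome. The 3 PHD WT sites were those at 74508006, 74508131 and 74508291 in HoxD. No Full M880A site (0 of 15, up to 21.8%) and no PHD M880A site (0 of 17, up to 19.5%) had such a neighbour, against 21.3% and 8.89% over the genome. With every line counted, or the other end as the junction, the Full M880A share was 12.5% (1.55 to 38.3). The flanks differed from the clusters in the wild-type libraries, with 76.5% (26 of 34) in Full WT and 90.0% (36 of 40) in PHD WT. The dense groups beside HoxB and HoxC make up much of this, with 21 and 13 of the 40 PHD WT flank sites and 9 and 9 of the 34 of Full WT.

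Within 5 kb the shares in the clusters were 79.2% (57.8 to 92.9) for Full WT, 13.3% (1.66 to 40.5) for Full M880A, 68.4% (43.4 to 87.4) for PHD WT and 23.5% (6.81 to 49.9) for PHD M880A. Over the genome they were 51.0%, 36.0%, 73.9% and 22.9%. Only the Full WT interval was without the genome's share, and it lay above it, with 82.4% in the flanks. The PHD WT sites of the Hox clusters thus had company at 5 kb about as often as the library's other sites, and less often at 1 kb, where the cluster interval ends below the genome's share. The lists differ in length, which bears on such shares between libraries but not on those within one.

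**Figure D4:**
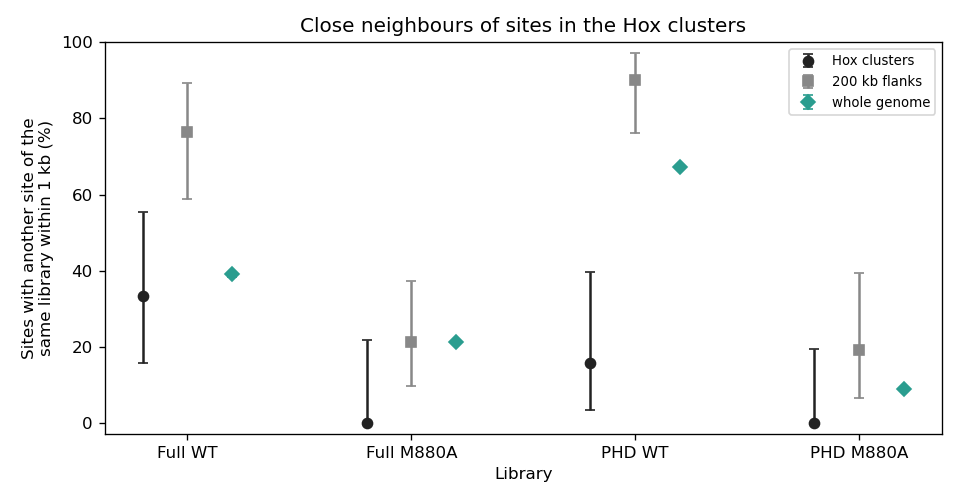
Sites that have a neighbour from their own library within 1 kb, in percent (y axis), by library, for the 4 Hox clusters together, for their 200 kb flanks and for the whole genome, with exact 95% intervals. The PHD WT value is 15.8% in the clusters, 90.0% in the flanks and 67.2% over the genome.

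Across libraries the shares lay on both sides of the genome's, and only some of the pairs of libraries are given here. Of the Full WT cluster sites, 2 of 24 (8.33%, 1.03 to 27.0) had a Full M880A site within 1 kb, beside 33.1% over the genome. Of the cluster sites, 8 of 19 in PHD WT (42.1%, 20.3 to 66.5) had a Full WT site at most 1 kb away, beside 54.4% over the genome, and 1 of 19 (5.26%, 0.133 to 26.0) within 1 kb of a Full M880A site, beside 45.1%. In the other direction, 4 of 15 Full M880A sites (26.7%, 7.79 to 55.1) had a PHD M880A site within 1 kb, beside 9.22%, an interval that holds the genome's share. Within 5 kb, a PHD M880A site was present for 75.0% of Full WT cluster sites (53.3 to 90.2), beside 37.5% over the genome and 41.2% in the flanks. A Full M880A site was present for 64.7% of PHD M880A cluster sites (38.3 to 85.8), beside 22.1% over the genome and 38.5% in the flanks. PHD M880A sites also had Full WT sites within 5 kb more often in the clusters, 58.8% (32.9 to 81.6) beside 16.1%, with 34.6% in the flanks. These lay in HoxA (6 of 8) and HoxD (4 of 4), with 0 of 3 in HoxB and 0 of 2 in HoxC. HoxA and HoxD are the clusters where Full WT stood at 10.2 and 9.14 times its mean. Shares of this kind rise with site density, so they are not separate from the counts per cluster. Closeness beyond density was not tested. PHD WT sites of the clusters had Full M880A sites within 5 kb in 36.8% (16.3 to 61.6), beside 62.8% over the genome and 85% in the flanks.

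Dense groups of at least 5 sites over the 4 libraries with gaps of at most 1 kb held 26.2% of all sites of the genome, but only 5 of the 75 Hox cluster sites. That 1 group lay in HoxA from 52181651 to 52183759 and had 1 Full WT, 1 Full M880A, 2 PHD WT and 1 PHD M880A sites. HoxD, with the higher density in its stretch, had no group above 4 sites, the one from 74508006 to 74508662 with 1 Full WT and 3 PHD WT sites and the one from 74522444 to 74524188 with 2 Full WT, 1 PHD WT and 1 PHD M880A sites. HoxA and HoxD sites were thus strung over 48.9 and 33.7 kb, whereas the groups in the HoxB and HoxC flanks packed 32 and 31 sites into 4920 and 4285 bp.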

How the data were processed

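For each library the authors deposited a 9-column file of integration sites. The score column in the deposited files was not used, and the number after each read name was taken as reads from its values only. Per the submitters' processing notes the build was mm9, and MACS 1.4.2 is named with no role. The sources used here do not give the aligner or the filters. The junction was the base after the start on the plus strand and the end on the minus strand, and identical junctions were collapsed (354 lines in Full WT, 401 in Full M880A, 722 in PHD WT and 472 in PHD M880A).

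Counts per region were set against the library mean over 2570 Mb, 200 kb flanks, the other libraries and 150 kb tiles. For a library pair, tiles and clusters with at least 10 sites over the pair were counted. The tile percentages of a pair cover 1 direction only, a share at least 2 times higher in the first library named. The members, lists and comparisons were chosen with earlier results of these data known. With an mm9 annotation, genes were to be named by their junctions. Without one, the rule named per cluster the 3 fullest bins of 10 kb and the longest empty stretch. Single sites, the split of each region into 2 equal parts, stretches, dense groups, the opposite-strand pair, ratios between clusters across pairs and promoter sequences were chosen after seeing the data. Sets of Hox neighbours, Hox cofactors and Cdx genes were not analysed here, for want of mm9 gene positions. The interval code was tested on simulated data. Calculations used Python 3.11.15, numpy 2.4.6, pandas 2.3.3, scipy 1.17.1 and matplotlib 3.10.9.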

Additional observations from a re-analysis of the deposited data

How the results depend on the processing

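Of 407 recomputed values, 391 counted as unchanged, 7 moved, 2 lost an interval without 1, 6 gained one and 1 reversed. Unchanged values stayed inside their first interval, and direction was checked only where that interval was without 1. Some of them turned: HoxC in PHD M880A against its flanks went from 0.476 to 1.14 without dense groups. HoxB in Full M880A over PHD M880A went from 2.07 to 0.935 at 10 reads or more. Counting every line, or taking the other end of the line as the junction, moved no interval across 1, but took HoxD in Full WT over Full M880A from 8.74 to 5.79 and 5.83. With at least 10 reads, HoxD in Full M880A was at 0 instead of 1.05 times the mean. HoxD in PHD WT over PHD M880A was 3.49 (1.01 to 15.2) with same-strand positions within 10 bp merged and 3.47 (1.00 to 15.2) without positions listed in several libraries. Against 100 kb flanks HoxB in Full WT was 1.95 and HoxD in Full WT 2.67. Against 500 kb flanks HoxB in PHD WT was 0.361 and HoxC in Full M880A 0.117. With the lower flank only, HoxB in Full WT was 0.139 and HoxC in PHD M880A 2.86, and with the upper flank only HoxB in Full WT was 1.95 and HoxC in Full M880A 0.102. Neighbour shares within 5 kb were 79.2%, 68.4% and 23.5% in Full WT, PHD WT and PHD M880A. In alternatives added after seeing the data, leaving dense groups out of the flanks reversed HoxB in PHD WT to 3.90, leaving them out of clusters and totals gave 7.57 (2.18 to 33.1) for HoxD in PHD WT over PHD M880A, and leaving out the outer 10 kb of each region changed no call. For 12 values a side fell to 0 and no ratio was computed. For tiles of 100 or 200 kb, 27 of 32 background shares moved by no more than 1.5 times. The cause of these changes was not tested, beyond the sites each setting removes. No paired analysis was possible because each group has 1 library. Counts of 0 to 12 sites per region and library limit all comparisons.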
